A study of Mus musculus with 4 samples.

Results

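The mitochondrial ribosomal protein genes are the protein-coding genes of GENCODE release M21 whose symbol is Mrpl or Mrps followed by a number, with or without a letter. There were 78 of them among 21938 coding genes outside the mitochondrial chromosome, 49 named for the large subunit (Mrpl) and 29 for the small subunit (Mrps). They were studied in chromatin accessibility profiles (ATAC-seq, in which the Tn5 transposase cuts DNA that nucleosomes leave uncovered) of mouse hearts at embryonic day 9.5. One group was wild type (WT). The other was *Smyd1-KO*, homozygous for a conventional null allele of *Smyd1*, a histone methyltransferase gene of heart and skeletal muscle. The null allele was thus carried by every cell of the embryo. Each genotype had 2 libraries, each made from 40000 viable cells of a pool of 4 whole hearts. Peaks were called on both libraries of a genotype together, so the values carry no replicate error and no gene could be tested between genotypes.

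The mitochondrial ribosome (mitoribosome) translates the few messenger RNAs of the mitochondrial genome, which encode core subunits of the respiratory chain and ATP synthase. Its RNA is made in the mitochondrion, but all of its proteins are encoded in the nucleus, made in the cytosol and imported. The small subunit decodes the messenger RNA and the large subunit joins amino acids. The adult heart relies on oxidative phosphorylation, whereas the early embryonic heart depends more on glycolysis, and loss of several of these proteins in people causes combined oxidative phosphorylation deficiency, in some cases with cardiomyopathy.

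Genes were set against 25745 peaks that were at least 2-fold higher in *Smyd1-KO* hearts, called gained peaks here, and against 106 peaks that were at least 2-fold higher in WT hearts. Each peak is 149 bp wide and has a score, the tag value that the peak caller HOMER gave it over the combined libraries of the genotype in which it was higher. Scores need not be whole numbers, so they are not plain read counts, and they are given in tags below. The score is therefore a level in *Smyd1-KO* hearts and not a fold change. Peaks that did not differ 2-fold, or that missed the Poisson cutoff of the caller, were not analysed here, so a gene without a peak may have had open or closed chromatin in both genotypes. Since hearts were taken whole, a change in the share of a cell type and a change in accessibility within a cell cannot be told apart. The heart label could not be checked from markers, because the lists hold differences and not levels in all open chromatin.

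A gain in *Smyd1-KO* hearts was listed at most of the mitoribosomal genes, and no gain in WT hearts was listed at any. Of the 78 genes, 59 had a gained peak within 3 kb of an annotated transcription start site (TSS), which is 75.6% (95% Clopper-Pearson interval 64.6% to 84.7%), beside 51.2% of all coding genes. A peak covered a TSS itself at 37 genes, or 47.4%, beside 27.8% of all coding genes. At 53 genes, or 67.9%, the peak had a score of at least 180.5, the median of the list, beside 45.4% of all coding genes. A total of 48 genes had 1 peak, 11 genes had 2 peaks and 19 genes had none. The 14.1% with 2 peaks stood beside 11.8% of all coding genes with 2 or more. None of the 78 genes had a peak of the WT list within that distance (0%, with an exact upper bound of 4.62%), beside 0.0228% of all coding genes, which is 5 genes. The peak of the WT list nearest to any of their TSSs was 181495 bp away. The intervals cover counting error over genes only, and genes are not replicates of a genotype.

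The sequences of 9 peaks are shown, chosen by score and by the strings they hold. They are given from the GRCm38 (mm10) genome on the sense strand of the gene, 5′ to 3′, and capitals mark matches to short strings known to be bound by transcription factors, on either strand. The first 3 are shown because they are the peaks with the highest scores among these genes. They are *Mrpl18* at chr17:12916154-12916302 (minus strand), *Mrpl41* at chr2:24975059-24975207 (minus strand) and *Mrps16* at chr14:20393512-20393660 (minus strand). Capitals mark ATTGG, the reverse complement of the NFY string CCAAT.
Mrpl18: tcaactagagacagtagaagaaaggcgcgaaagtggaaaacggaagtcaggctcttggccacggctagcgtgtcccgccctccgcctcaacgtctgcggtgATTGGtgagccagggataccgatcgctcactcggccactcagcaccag
Mrpl41: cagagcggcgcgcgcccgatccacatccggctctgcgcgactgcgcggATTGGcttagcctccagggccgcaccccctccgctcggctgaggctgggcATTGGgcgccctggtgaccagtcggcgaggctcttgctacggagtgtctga
Mrps16: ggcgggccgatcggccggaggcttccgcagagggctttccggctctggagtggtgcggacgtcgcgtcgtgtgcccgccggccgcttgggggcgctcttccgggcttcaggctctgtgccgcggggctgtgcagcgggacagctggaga

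Counted from the first base printed, an annotated TSS of *Mrpl18* is at base 101, that of *Mrpl41* at base 110 and that of *Mrps16* at base 27. The *Mrps16* peak held none of the strings searched. The next 3 are shown because each has the highest score among the peaks that cover a TSS and hold a string of a factor known for nuclear genes of mitochondrial proteins. These are *Mrpl32* at chr13:14613060-14613208 (minus strand) for NRF1, *Mrps35* at chr6:147042686-147042834 (plus strand) for the ETS factor GABPA and *Mrps36* at chr13:100744489-100744637 (minus strand) for YY1.
Mrpl32: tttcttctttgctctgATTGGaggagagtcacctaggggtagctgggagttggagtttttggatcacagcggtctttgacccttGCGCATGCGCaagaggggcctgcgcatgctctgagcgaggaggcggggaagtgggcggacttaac
Mrps35: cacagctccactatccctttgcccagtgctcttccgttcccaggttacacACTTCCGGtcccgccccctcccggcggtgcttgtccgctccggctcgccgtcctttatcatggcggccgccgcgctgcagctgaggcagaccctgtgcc
Mrps36: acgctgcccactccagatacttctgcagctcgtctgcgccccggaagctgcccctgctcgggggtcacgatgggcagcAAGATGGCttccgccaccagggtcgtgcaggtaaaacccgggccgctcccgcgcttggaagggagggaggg

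In *Mrpl32* the NRF1 string starts at base 85 on the sense strand and at base 86 on the other, downstream of the TSS at base 44, and an NFY match lies upstream of that TSS. In *Mrps35* the ETS match starts at base 51, upstream of the TSS at base 79. In *Mrps36* the YY1 match starts at base 79, downstream of the TSS at base 50. The last 3 are shown because they have the highest score among TSS-covering peaks with the SP1/KLF string, the E-box and the GATA string. They are *Mrpl38* at chr11:116138851-116138999 (minus strand), *Mrpl36* at chr13:73330924-73331072 (plus strand) and *Mrps17* at chr5:129715393-129715541 (plus strand).
Mrpl38: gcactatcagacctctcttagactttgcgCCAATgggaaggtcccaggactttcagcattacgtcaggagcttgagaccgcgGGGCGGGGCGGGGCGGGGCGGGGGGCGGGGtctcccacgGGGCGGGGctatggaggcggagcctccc
Mrpl36: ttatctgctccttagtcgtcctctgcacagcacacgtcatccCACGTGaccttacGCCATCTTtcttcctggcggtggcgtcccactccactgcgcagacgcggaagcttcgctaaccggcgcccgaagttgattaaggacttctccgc
Mrps17: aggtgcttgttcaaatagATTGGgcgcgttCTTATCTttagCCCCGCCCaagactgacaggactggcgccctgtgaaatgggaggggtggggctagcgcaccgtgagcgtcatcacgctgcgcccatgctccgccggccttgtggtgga

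The *Mrpl38* peak holds 6 matches to the SP1/KLF string, of which each of the first 4 overlaps the next in the row, and an NFY match before them. The *Mrpl36* peak holds an E-box, CACGTG, at base 43 and a YY1 match at base 56, both upstream of its TSSs at bases 65 and 103. The *Mrps17* peak holds matches to NFY, GATA and SP1/KLF, all upstream of its first TSS in the peak at base 105.

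Among large subunit genes, 40 of 49 had a peak (81.6%, 68.0% to 91.2%), and the median score of the strongest peak of a gene was 358.75 tags (95% interval of the median 288.0 to 519.5). *Mrpl18*, whose protein lies in the central protuberance of the subunit, had the highest score at 1301.0 tags. *Mrpl41*, a subunit with no bacterial counterpart that has also been studied in apoptosis, followed at 1287.5 tags. Both peaks covered a TSS in the 5′ UTR. After a gap came *Mrpl17* with 931.0, *Mrpl2* with 903.0, *Mrpl47* with 894.5, *Mrpl51* with 859.0 and *Mrpl48* with 854.0 tags. Among the 11236 coding genes with a peak, the highest decile had scores above 938.0 tags, which of the mitoribosomal genes was reached by *Mrpl18*, *Mrpl41* and the small subunit genes *Mrps16* and *Mrps14*.

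At the other end, *Mrpl13* had the lowest score of all, 44.5 tags, in an intron 783 bp downstream of its nearest TSS. The centre of its peak lay 10441 bp from the annotated 5′ end of the gene. *Mrpl33* followed with 102.5 tags in a peak 223 bp upstream of its TSS, and *Mrpl3*, mutated in a combined oxidative phosphorylation deficiency, with 120.5 tags over its TSS. *Mrpl36* had 159.5 and *Mrpl53* 198.0 tags, both in peaks that covered a TSS. These low scores were therefore found at start sites as well as away from them. Other large subunit genes lay between. For example *Mrpl12*, whose protein also binds the mitochondrial RNA polymerase, had 519.5 tags, and *Mrpl58*, a peptidyl-tRNA hydrolase that rescues stalled ribosomes, had 288.0 tags.

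Among small subunit genes, 19 of 29 had a peak (65.5%, 45.7% to 82.1%), with a median score of 414.0 tags (193.0 to 671.0). *Mrps16*, mutated in a combined oxidative phosphorylation deficiency, had the highest score at 1228.0 tags, over its TSS. *Mrps14* followed with 1029.0 tags 35 bp upstream of its TSS. *Mrps18b* had 893.5 tags in a peak 292 bp upstream. The lowest were *Mrps18a* with 162.5, *Mrps10* with 163.5, *Mrps6* with 184.0, *Mrps31* with 186.0 and *Mrps30* with 193.0 tags. The *Mrps18* paralogues thus differed widely, and *Mrps18c* had no peak within 3 kb at all. The subunit is read from the symbol, although the proteins of *Mrps18a* and *Mrps30* sit in the large subunit in structures of the mammalian ribosome. The intervals of the shares and of the medians of the 2 subunits overlap.

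**Figure D1:**
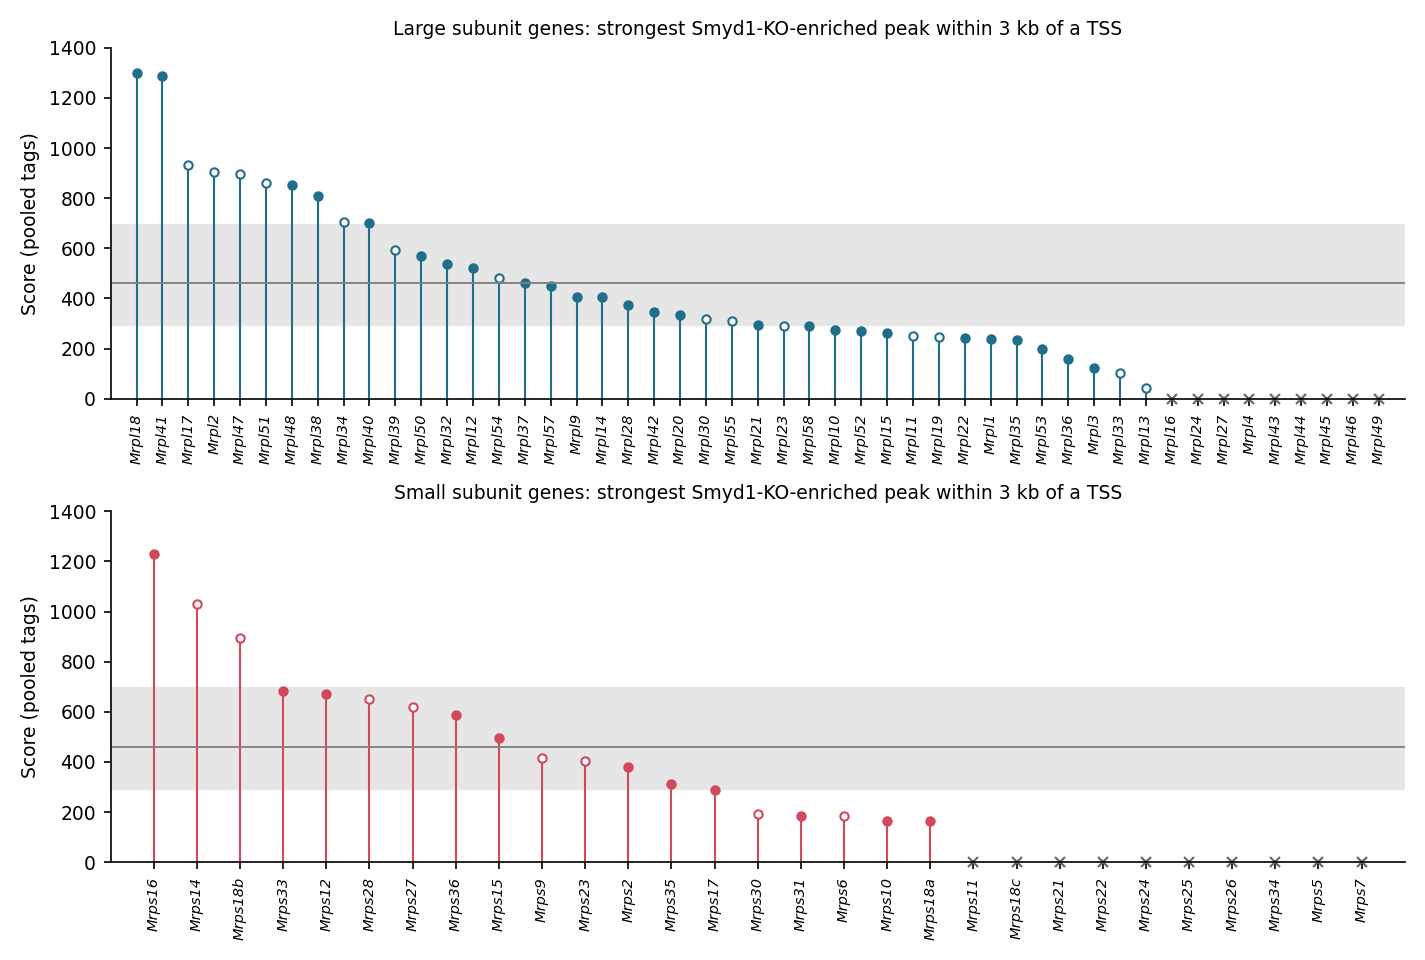
Score (tag value over the combined *Smyd1-KO* libraries) of the strongest gained peak within 3 kb of a TSS for each large subunit gene (upper panel) and small subunit gene (lower panel); filled points cover a TSS, open points do not, crosses are genes without a peak, and the line and grey band are the median and the range between quartiles over all coding genes with a peak. Scores run from 44.5 to 1301.0 tags, and 9 large and 10 small subunit genes have no peak.

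The genes were also separated by whether the protein is numbered after a bacterial ribosomal protein (Mrpl1 to Mrpl36 and Mrps2 to Mrps21) or is one of the later numbers, which the mitoribosome gained. Of the large subunit genes, 24 of 28 with bacterial numbering had a peak and 16 of 21 with later numbers. The median score was 291.5 tags (243.5 to 407.0) in the first class and 526.25 tags (308.0 to 854.0) in the second, and these intervals overlap. In the small subunit, 11 of 16 genes with bacterial numbering had a peak, with a median of 414.0 tags, and 8 of 13 later ones, with a median of 497.0 tags. *Mrps36* is a special case among the later numbers, because its protein is now known as a component of the 2-oxoglutarate dehydrogenase complex. Its 2 peaks had 589.0 and 573.5 tags, and both covered a TSS.

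Although a peak was listed more often at these genes than at coding genes in all, the scores were not higher. The median score over the 59 genes was 405.0 tags (295.0 to 519.5), with quartiles of 256.5 and 660.5, and over other coding genes with a peak it was 460.5 tags, with quartiles of 292.5 and 693.0. Weighting the other genes to the GC content of the mitoribosomal genes gave them a median of 424.0 tags. Against the quartiles of all coding genes with a peak, 21 of the 59 fell below the lower quartile of 292.0 tags, 13 and 12 on the lower and upper side of the median, and 13 above the upper quartile of 693.0 tags. The lowest decile held 6 and the highest decile held 4 of them.

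Base composition moved with these counts. The median GC within 500 bp of the annotated 5′ end was 55.7% in the mitoribosomal genes and 54.7% in other coding genes, while the ratio of observed to expected CpG was 0.720 against 0.550. Other coding genes had a peak in 3.85% of cases in the lowest decile of GC and in 82.3% in the highest. When the other genes were weighted to the GC of the 78, 58.1% of them had a peak, 17.5 percentage points fewer than the mitoribosomal genes. When they were weighted to GC and CpG together, 71.2% had a peak and the difference was 4.42 percentage points, so that the share in other genes lay inside the counting interval of the mitoribosomal genes. Peaks that cover a TSS behaved likewise, with 32.4% in other genes weighted to GC and 43.1% weighted to GC and CpG, beside the 47.4% above.

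The GC deciles show where the difference lay. In the third to seventh deciles, each with 7 to 16 mitoribosomal genes, their share was above that of other coding genes. In the decile from 57.1% to 59.6% GC, 15 of 16 had a peak (93.8%), beside 68.1% of other genes. In the decile from 59.6% to 62.5% they had 75.0% beside 76.9%, and in the decile from 62.5% to 66.3% they had 2 of 5 beside 78.8%. The interval took in the share of other genes in every decile with a mitoribosomal gene except the third and the seventh. *Mrpl35*, the only gene in the lowest decile, had its peak over a TSS 3248 bp from the annotated 5′ end at which GC was measured, so its GC of 37.6% is not that of the peak, which was 58.4%. Across the 59 genes the score rose with GC (Spearman's rho 0.479), as it did across 11177 other genes (0.323), where genes share libraries and are not independent points.

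**Figure D2:**
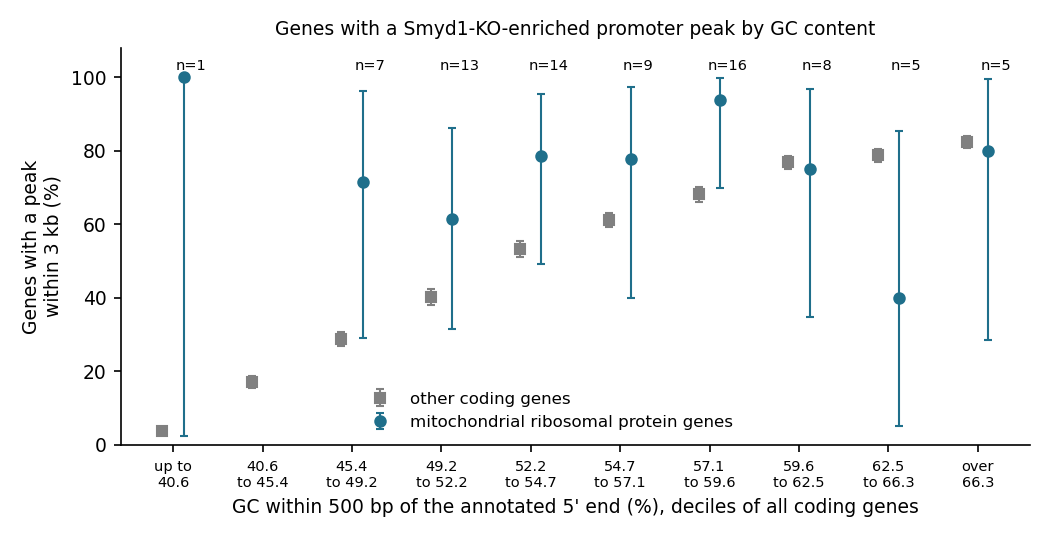
Share of genes with a gained peak within 3 kb of a TSS (vertical axis, %) in deciles of all coding genes by GC within 500 bp of the annotated 5′ end (horizontal axis, %), for mitochondrial ribosomal protein genes (circles, with their number above) and other coding genes (squares), with 95% Clopper-Pearson intervals. Other genes climb from 3.85% to 82.3%, whereas the mitoribosomal genes lie above them from 45.4% to 59.6% GC and not above them at higher GC.

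The number of annotated start sites also gives a gene more chances of a peak. The median was 4 TSSs in mitoribosomal genes and 3 in other coding genes. With 1 to 2 TSSs, 63.6% of mitoribosomal genes had a peak (14 of 22) beside 28.6% of other genes. With 3 to 5 TSSs the shares were 78.9% (30 of 38) and 57.0%, and with 6 or more they were 83.3% (15 of 18) and 77.8%. The gap was thus widest where a gene had few start sites, in shares not weighted to GC or CpG. The 95% intervals of the mitoribosomal shares were 40.7% to 82.8%, 62.7% to 90.4% and 58.6% to 96.4%, in that order.

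The peaks sat close to the start sites. The 59 genes had 70 peaks, none of them shared between 2 mitoribosomal genes, of which 38 covered a TSS, 53 lay within 100 bp of one and 63 within 1 kb. Of those that did not cover a TSS, 21 were upstream and 11 downstream. The centre of the strongest peak had a median position 29 bp upstream of the nearest TSS (-29.0 bp, with quartiles of -78.5 and 38.0 bp). The strongest peak lay within 100 bp of a TSS in 86.4% of the 59 genes and in 73.6% of other coding genes with a peak, and it covered a TSS in 62.7% and 49.8%. By annotation, 24 of the strongest peaks overlapped a 5′ UTR, 16 a 5′ UTR and a coding exon, 12 lay upstream of the gene, 4 in introns, and 1 each in a coding exon, in an exon of a non-coding transcript and downstream. Their median GC was 63.8%, beside 66.4% in the strongest peaks of other genes. Repeat-masked bases occurred in 15 of them, and none was more than 50% repeat.

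A few peaks were farther away. *Mrps6* counted only by an intronic peak 2355 bp from a TSS, the farthest strongest peak inside the 3 kb limit. The centre of that peak lay 45562 bp from the annotated 5′ end of the gene. The strongest peak of *Mrpl2* lay 1379 bp from a TSS, beyond the end of the gene and within 1 kb of a TSS of *Cul7*, while a nearer peak 47 bp upstream of its TSS had 487.5 tags. Just outside the limit was *Mrpl49*, with a peak of 504.0 tags at 3381 bp, and then *Mrpl45*, with one of 311.5 tags at 5291 bp. Within 1 kb in place of 3 kb, 58 of the 59 genes still counted, and the one lost was *Mrps6*.

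**Figure D3:**
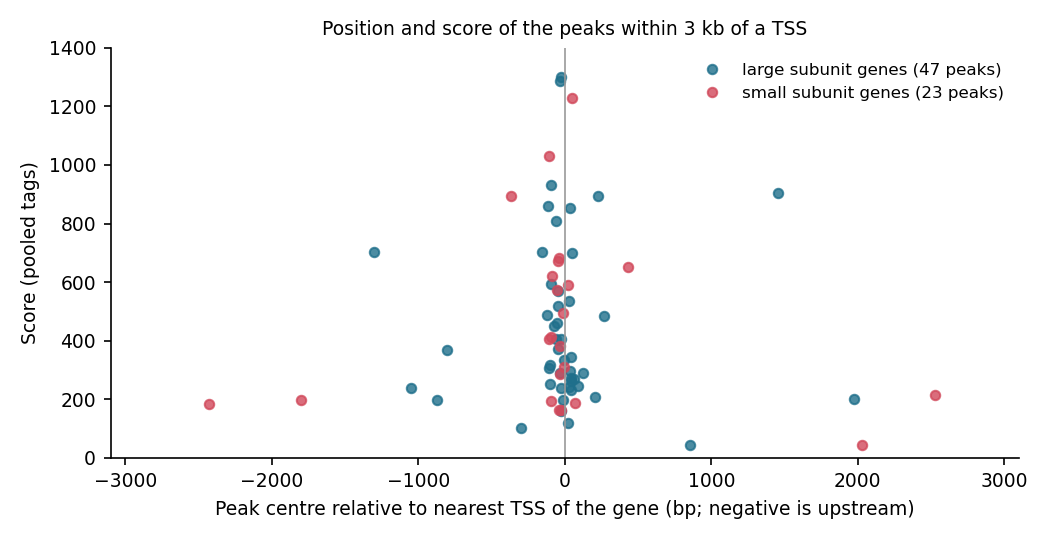
Score (vertical axis, tags) of the 70 gained peaks against the distance of the peak centre from the nearest TSS of the gene (horizontal axis, bp, negative upstream), for large (blue) and small (red) subunit genes. Of the 70 peaks, 53 lie within 100 bp of a TSS by their nearer edge, and peaks of high and low score share that position.

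Where a gene had 2 peaks, the weaker one mostly lay away from the TSS. The exceptions were *Mrpl2* and *Mrps36*, whose weaker peaks, described above, lay 47 bp from a TSS and over one, and *Mrpl48*, whose weaker peak of 207.5 tags lay 135 bp from a TSS. The centre of that *Mrpl48* peak was 25435 bp from the annotated 5′ end of the gene. The peaks of *Mrpl34* 83 and 1227 bp upstream had near-equal scores of 703.5 and 701.0 tags, the farther one over a TSS of *Abhd8*. *Mrpl41* had a second peak of 368.0 tags 728 bp upstream, *Mrpl14* one of 198.0 tags 797 bp upstream beside 405.0 tags at its TSS, and *Mrpl40* one of 239.5 tags 973 bp upstream beside 699.0 tags. *Mrpl23* had a second peak of 200.5 tags. In the small subunit, *Mrps2* had 381.0 and 196.0 tags, *Mrps18b* a second peak of 216.0 tags 2454 bp away over a TSS of *Atat1*, and *Mrps9* had 414.0 tags near its TSS and 43.0 tags in an intron. The second peak of *Mrps9* was the weakest of the 70.

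Mitoribosomal genes often share a promoter region with a neighbour. A coding gene on the other strand started within 1 kb of the annotated 5′ end in 25 of 78, or 32.1%, beside 9.36% of other coding genes. Among these 25, a peak was listed at 17 (68.0%, 46.5% to 85.1%), beside 84.2% of other genes with such a neighbour. Among the 53 without one, a peak was listed at 42 (79.2%, 65.9% to 89.2%), beside 47.7% of other genes. The share was thus above that of other coding genes where no such neighbour was present, and not where one was. These shares were not weighted to GC or CpG, and the contrast was not tested. The difference was 29.9 percentage points when only genes with no other coding TSS within 1 kb were used, of which 35 of 44 mitoribosomal genes had a peak. That value is weighted to GC and not to CpG. Over all 78 genes, weighting to both in place of GC alone lowered the difference from 17.5 to 4.42 points. The median score ran the other way, with 569.5 tags (449.5 to 859.0) at the 17 genes with a divergent neighbour and 309.25 tags (261.0 to 407.0) at the 42 without, and in other coding genes 602.5 and 440.5 tags.

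The partners of the strongest peaks were of many kinds. Of the 59 strongest peaks, 21 lay within 1 kb of a TSS of another coding gene, and 11 covered one. The 5 with the highest scores were those of *Mrpl18* with *Tcp1*, a subunit of the cytosolic chaperonin, *Mrpl41* with *Pnpla7*, *Mrpl2* with *Cul7*, *Mrpl47* with *Ndufb5*, a subunit of respiratory complex I, and *Mrps18b* with *Ppp1r10*. The peaks of *Mrpl47* and *Mrps18b* covered the TSS of the partner and not one of their own, at 150 and 292 bp. *Mrps12* shared its peak of 671.0 tags with *Sars2*, which encodes the mitochondrial seryl-tRNA synthetase, and was chosen for mention after its values were seen. The peak list cannot say to which gene of a pair such a peak belongs.

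The 19 genes without a peak within 3 kb were 9 of the large subunit, namely *Mrpl4*, *Mrpl16*, *Mrpl24*, *Mrpl27*, *Mrpl43*, *Mrpl44*, *Mrpl45*, *Mrpl46* and *Mrpl49*, and 10 of the small subunit, namely *Mrps5*, *Mrps7*, *Mrps11*, *Mrps18c*, *Mrps21*, *Mrps22*, *Mrps24*, *Mrps25*, *Mrps26* and *Mrps34*. They include *Mrpl44*, which is mutated in a hypertrophic cardiomyopathy of infancy, and *Mrps22*, mutated in a combined oxidative phosphorylation deficiency. The nearest gained peak was 3381 to 69379 bp from a TSS of these genes, with a median of 11006 bp. *Mrps25* was the farthest, and 9 of the 19 had a peak within 10 kb. Their base composition was near that of the genes with a peak, with a median GC of 54.1% beside 56.0% and a CpG ratio of 0.729 beside 0.713. A divergent coding neighbour was present at 8 of the 19 (42.1%) and at 17 of the 59 (28.8%).

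Some of these absences were shared by both genes of a pair. *Mrpl46* and *Mrps11* start beside each other on opposite strands, and neither had a peak, the nearest being the same peak of 126.5 tags at 8064 and 8224 bp. *Mrpl43* starts beside *Twnk*, the helicase of mitochondrial DNA, and neither had a peak within 3 kb. The other genes of the 19 with divergent neighbours were *Mrpl27* with *Eme1*, *Mrpl49* with *Fau*, *Mrps5* with *Zfp661*, *Mrps7* with *Gga3*, *Mrps18c* with *Helq* and *Mrps34* with *Eme2*. The mitoribosomal genes lie on 17 chromosomes, with at most 11 on any one, chromosome 11, where 7 had a peak. On chromosome 17, 7 of 8 had a peak, all but *Mrps34*.

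Short strings bound by factors known for mitochondrial genes were looked for in the promoters, taken as 250 bases before to 50 bases after the annotated 5′ end, and in the peaks. NRF1 and GABPA are regulators of many nuclear genes of the respiratory chain, and YY1 is a zinc finger factor that also acts on mitochondrial genes. On either strand, the NRF1 string GCGCATGCG was present in 5 of 78 promoters (6.41%), beside 2.47% of other coding promoters. The ETS string CCGGAAGT was present in 10 (12.8%), beside 4.67%. The YY1 string AAGATGGC was present in 10 (12.8%), beside 2.88%. Weighting the other promoters to the GC of the mitoribosomal genes gave 2.65%, 6.04% and 3.36%.

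At least 1 of the 3 strings was present in 23 promoters (29.5%), at least 2 of them in 2 promoters and none in 55. Other coding promoters held at least 1 in 9.47% of cases, in 11.3% when weighted to GC, in 17.2% when weighted to GC and CpG, and in 13.2% where the gene had a peak. The NRF1 genes were *Mrpl9*, *Mrpl10*, *Mrpl17*, *Mrpl22* and *Mrpl32*. The ETS genes were *Mrpl3*, *Mrpl18*, *Mrpl27*, *Mrpl43*, *Mrpl52*, *Mrps18c*, *Mrps22*, *Mrps26*, *Mrps27* and *Mrps35*. The YY1 genes were *Mrpl32*, *Mrpl36*, *Mrpl37*, *Mrpl42*, *Mrps10*, *Mrps11*, *Mrps12*, *Mrps18a*, *Mrps18b* and *Mrps27*, and *Mrpl32* and *Mrps27* held 2 of the strings each. The strings did not separate genes with a peak from genes without one, since they were present in 17 of 59 (28.8%) and 6 of 19 (31.6%).

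The other strings were about as frequent as elsewhere. The SP1/KLF string GGGCGGGG was present in 19.2% of the promoters beside 21.7% of other promoters, NFY in 35.9% beside 39.0%, the palindromic E-box in 6.41% beside 7.76%, the palindromic CREB string TGACGTCA in 2.56% beside 2.43% and the AGATAAG string of GATA factors in 3.85% beside 2.80%. A string with the letters of the ETS string in another order, GACGTAGC, was found in none of the 78, beside 0.384%. No string searched contains another, but matches can overlap, as those in the *Mrpl38* peak do.

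Within the 149 bp of the strongest peaks, YY1 was present in 6 of 59 (10.2%), beside 2.07% of the 12450 other peaks within 3 kb of a coding TSS. These peaks belong to *Mrpl35*, *Mrpl36*, *Mrpl42*, *Mrps10*, *Mrps18a* and *Mrps36*. NRF1 was present in 3 (5.08%), beside 1.51%, and ETS in 4 (6.78%), beside 3.65%. The SP1/KLF string was present in 4 (6.78%), beside 21.8%. NFY was present in 14 (23.7%), beside 24.2%, the E-box in 1 (1.69%), beside 4.37%, and the GATA string in 2 (3.39%), beside 1.27%, while CREB, at 1.41% of the other peaks, was in none. Among peaks that cover a TSS, YY1 was in 6 of 38 (15.8%) beside 3.24%, and SP1/KLF in 5 of 38 (13.2%) beside 26.0%. All are matches of letters and not measurements of binding, and with so few matches a change of a few genes would move the shares widely. The 12450 other peaks were not limited to the strongest peak of each gene, and no share in peaks was weighted to GC.

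**Figure D4:**
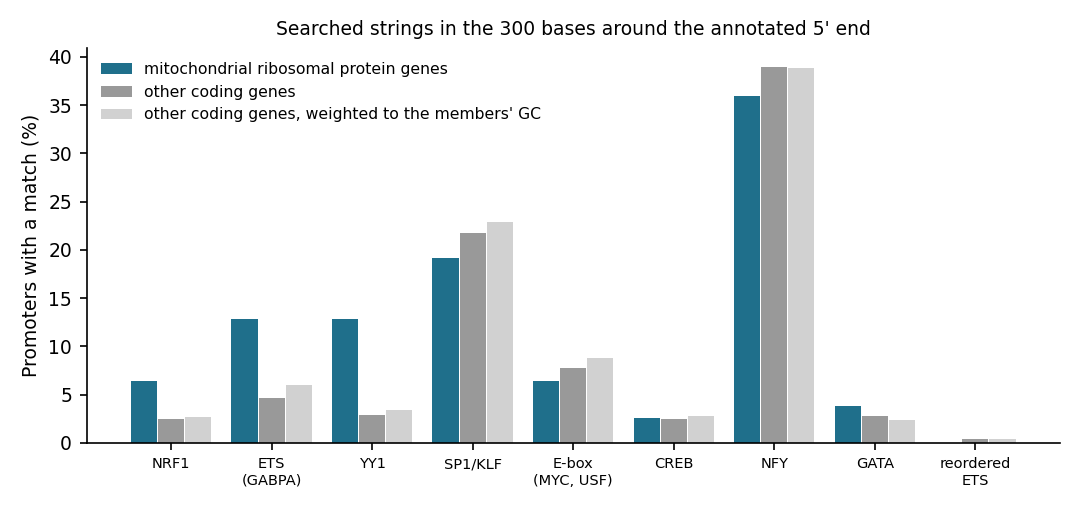
Share of promoters (vertical axis, %) with a match on either strand to each of the 9 strings, for mitochondrial ribosomal protein genes (blue), other coding genes (dark grey) and other coding genes weighted to the GC of the former (light grey). The blue bars are higher for NRF1 (6.41%), ETS (12.8%) and YY1 (12.8%) and slightly higher for GATA (3.85%), and near or below the grey ones for SP1/KLF, the E-box, CREB, NFY and the reordered string.

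Gene lists of the same pathway were counted in the same way, beside the 51.2% of all coding genes. Of the 5 mitoribosomal proteins that go by other symbols, 3 had a peak, namely *Dap3* with 678.0, *Aurkaip1* with 489.5 and *Chchd1* with 242.5 tags, and *Gadd45gip1* and *Ptcd3* had none. Of 27 assembly and ribosomal RNA factors, 22 had a peak (81.5%), with a median score of 351.75 tags. The highest were *Tfb1m*, a methyltransferase of the small subunit RNA, with 809.5, *Mettl17* with 743.0 and *Ptcd1* with 703.5 tags, and the 5 without a peak were *Ddx28*, *Mrm3*, *Mterf4*, *Ngrn* and *Slirp*. Of 13 translation factors, 9 had a peak (69.2%), led by the release factor *Mtrf1l* with 1031.5 tags, the elongation factor *Tufm* with 554.0 and the recycling factor *Mrrf* with 435.0 tags. *Mtrf1*, *Oxa1l*, *Taco1* and *Tsfm* had none.

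Genes of the steps before translation were counted next. Of 17 mitochondrial tRNA synthetase genes, 16 had a peak (94.1%, 71.3% to 99.9%), with a median of 536.25 tags, among them *Ears2* with 880.0 and *Sars2* with 671.0 tags, and *Rars2* had none. Of 14 genes of mitochondrial DNA maintenance and transcription, 11 had a peak (78.6%), with a median of 602.5 tags. *Tfb2m*, an initiation factor of mitochondrial transcription, had 1040.5 tags, *Tfam*, which packages mitochondrial DNA, 838.5 and *Dguok* 771.0 tags, while *Mterf1a*, *Ssbp1* and *Twnk* had none.

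Cytosolic ribosomal protein genes were close to the mitochondrial ones. A peak was listed at 57 of 80 (71.2%, 60.0% to 80.8%), beside the 75.6% above, and the median score was 450.5 tags beside 405.0. The highest were *Rpl37* with 1197.0, *Rpl13a* with 1189.5 and *Rps21* with 1153.0 tags. *Rpl10*, *Rpl10l*, *Rpl13*, *Rpl14* and *Rpl17* were the first in alphabetical order of the 23 without a peak. The counts by themselves therefore did not set the mitochondrial ribosome apart from the cytosolic one.

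Markers of the cell types in the heart were counted beside them. Of 8 cardiomyocyte markers, 7 had a peak, led by *Actc1* with 619.5, *Tnnt2* with 599.5 and *Actn2* with 556.0 tags, and *Nkx2-5* had none. Of 6 endothelial markers, 2 had one, *Nfatc1* with 165.5 and *Tek* with 79.5 tags, and *Cdh5*, *Kdr*, *Pecam1* and *Tie1* had none. Of 6 blood markers only *Klf1* had one, with 677.5 tags 1157 bp from a TSS, and those without one included *Gata1*, *Hba-x*, *Hbb-y* and *Tal1*. Of 4 epicardial markers, *Tbx18* with 338.5 and *Wt1* with 221.5 tags had one, and *Tcf21* and *Upk3b* had none. The part of cell composition in the mitoribosomal counts was not tested.

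**Figure D5:**
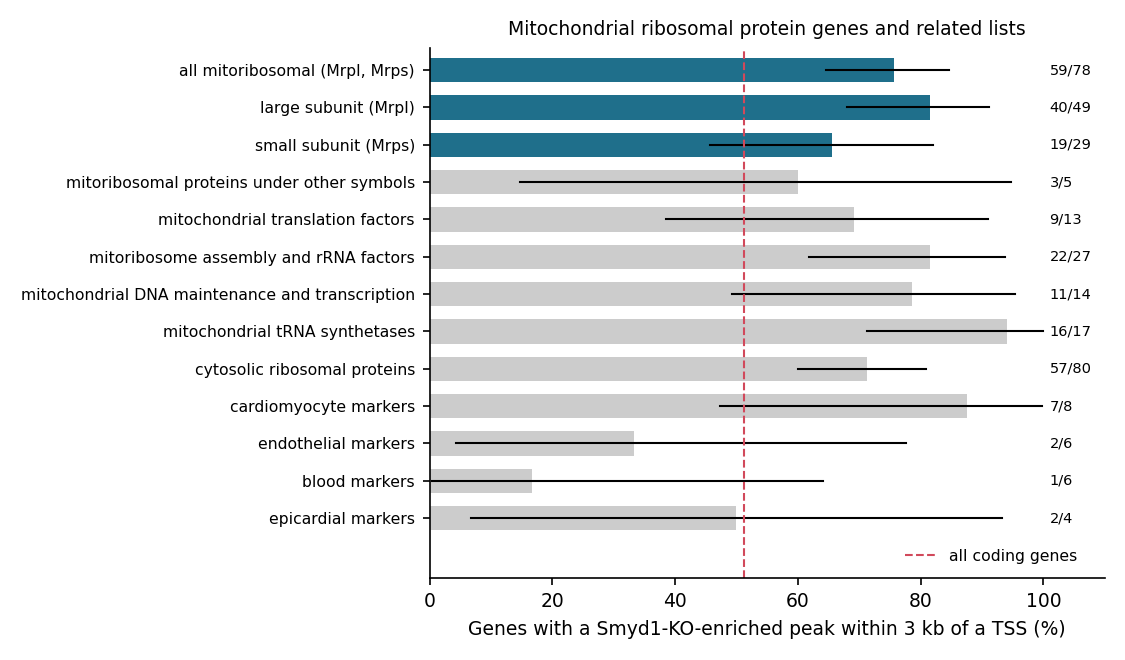
Share of genes with a gained peak within 3 kb of a TSS (horizontal axis, %) for the mitochondrial ribosomal protein genes and their subunits (blue) and for related gene lists and cell type markers (grey), with 95% Clopper-Pearson intervals as lines, counts at the right and the 51.2% of all coding genes as the dashed line. The mitoribosomal genes (75.6%) and the cytosolic ribosomal protein genes (71.2%) have overlapping intervals, and the lists of under 10 genes have wide ones.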

How the data were processed

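The authors thawed and pooled 4 cryopreserved hearts per library, used BWA-MEM to align ATAC-seq reads to mm10, and called peaks in HOMER. Per the header of their peak tables, data of each genotype were combined for this step, and peaks were kept that differed at least 2-fold and passed a Poisson cutoff. The deposited value of a peak is a signal, the total tags that HOMER gave it in the genotype in which it was higher. It is not a plain read count, since it moves in steps of 0.5 in the *Smyd1-KO* list and of 0.1 in the WT list, so scores were not compared between lists. Treatment of duplicates, of reads with several positions and of the Tn5 offset is not given in the sources used here and could change which peaks are listed. The depth of each library is unknown from the lists.

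Every annotated transcript start of a GENCODE M21 coding gene was used as a TSS, and distances ran to the nearer edge of a peak. The strongest peak within 3 kb stood for a gene. Other coding genes were weighted to the mitoribosomal genes over 10 bins of GC, measured 500 bp to either side of the annotated 5′ end. Strings were matched exactly, on both strands, in the GRCm38 sequence. Shares have Clopper-Pearson 95% intervals. No test was made, since the pooled lists hold no replicates. The members and lists were chosen with earlier results of these data known. Named genes were every member without a peak, the 10 highest and 10 lowest scores, members with 2 peaks, the 5 highest shared peaks, and the 3 highest genes and up to 5 genes without a peak of each related list, of which some are not reported here. Other genes named were chosen as examples after their values were seen. Symbols of 2 translation factors were not found in the annotation. Scripts ran in Python 3.11.15 with numpy 2.4.6, scipy 1.17.1, pysam 0.24.0 and matplotlib 3.10.9, and the distance and weighting steps were tested on simulated data. The alternatives were other windows, start sites, score limits and ways to weight, and the use of genes with no close neighbour.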

Additional observations from a re-analysis of the deposited data

How the results depend on the processing

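The share of mitoribosomal genes with a peak was 75.6% and the difference from other genes weighted to GC 17.5 percentage points. Binning by GC and CpG together brought the difference to 4.42 points, and the use of genes with no other coding TSS within 1 kb raised it to 29.9 points. The 29.9 points are weighted to GC and not to CpG. A window of 10 kb gave a share of 87.2% (68 genes), and 1 TSS per gene lowered the share with a peak over a TSS to 33.3% (26 genes). Of 39 values under the alternatives these 4 moved beyond the counting interval or by over 1.5 times, and 35 did not. No difference changed sign, whereas shares and median scores cannot have a negative sign. The 35 include small related lists, whose wide intervals leave little room to move beyond them. No paired analysis was possible because the lists pool the libraries of a genotype, and for the same reason no replicate could be left out. The lists keep differences of at least 2-fold, so smaller gains and genes open in both genotypes are not in them. The depth that each library reached cannot be read from the lists, and what it limits was not tested.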
